A study of Mus musculus with 7 samples.

Results

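Pregranulosa cells that were high in Gng13 were described in the mouse ovary at E16.5 (embryonic age in days). A cell was taken as Gng13-high if it had at least 1000 detected genes, at least 5 unique molecular identifiers (UMIs, counted transcripts) of Gng13 and at least 2 of Wnt6 and Kitl together, no Pax8, at most 1 UMI of Upk3b and at most 2 of Dazl and Ddx4 together. Of the 11042 cells of the E16.5 library, 1022 met this rule, which is 9.26% (95% exact binomial interval 8.72 to 9.81). They were 14.0% (13.2 to 14.8) of the 7306 somatic cells with at least 1000 genes, where somatic means at most 2 UMIs of Dazl and Ddx4, both germ cell genes. The series holds 52542 cells.

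Single-cell RNA was measured by droplet sequencing (10x Genomics) in 7 libraries, 1 for each age. The fetal ages were E11.5 and E12.5, then E14.5, followed by E16.5 itself and E18.5, and the ages after birth were postnatal days P1 and P5. All came from pooled gonads of untreated wild-type C57BL/6J mice, dissociated with trypsin. The pooling follows the paper, whereas the growth protocol deposited with the data speaks of an individual ovary. The E16.5 library held 125415948 UMIs, with a median of 10712 per cell. With 1 library at each age there was no biological replicate, so no difference below was tested. A level is a gene's summed UMIs in a class of cells for every 1000000 UMIs of the class (CPM), with an exact 95% Poisson interval. A ratio of levels is given with its exact conditional interval in parentheses. All intervals cover counting error only, neither the spread between cells nor that between animals.

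Granulosa cells are the somatic cells that enclose the oocyte in a follicle, and pregranulosa (PG) cells are their fetal precursors. PG cells arise from bipotential precursors of the early gonad (the BPG pathway) and from the ovarian surface epithelium (the EPG pathway). The first are known chiefly from medullary follicles and the second from the cortical follicles of the adult reserve. Foxl2 is a forkhead transcription factor that maintains granulosa identity, Lgr5 is a receptor for R-spondins that amplifies Wnt signalling, and Gng13 encodes a gamma subunit of heterotrimeric G proteins. Wnt6 and Kitl, the ligand of the Kit receptor on oocytes, are expressed by PG cells, Pax8 by tubule cells of the rete, and Upk3b by mesothelial surface cells. Dissociation removed the position of each cell, so whether these cells lay in the cortex was not measured.

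The E16.5 library differed from the others in its barcodes. It had 11 cells whose barcodes begin with AAACCC and 0 with AAACCT, whereas the other libraries had between 7 and 25 with AAACCT and 0 with AAACCC. Only 9 of its barcodes occurred in any other library, and 0 of the barcodes of Gng13-high cells did, while every other library shared between 1.5 and 1.65% of its barcodes with E14.5. Differences between E16.5 and another age can therefore not be told apart from a difference between these barcode sets.

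The rule selected on Gng13, so the promoters of that gene are shown first, beside that of Akr1c14, which is among the genes lowest in these cells against other PG cells. Akr1c14 encodes a hydroxysteroid dehydrogenase that acts on androgens. The sequences are from RefSeq on GRCm38.p6, from 250 bases before to 50 bases after a start site, read 5′ to 3′. Gng13 has start site 1 in chr17:25716922-25717221 and start site 2 in chr17:25717278-25717577, and Akr1c14 has its window at chr13:4059341-4059640, all on the plus strand. Capitals mark matches on either strand to TAAACA, a forkhead motif, or GGGCGG, an SP motif.
Gng13, start site 1: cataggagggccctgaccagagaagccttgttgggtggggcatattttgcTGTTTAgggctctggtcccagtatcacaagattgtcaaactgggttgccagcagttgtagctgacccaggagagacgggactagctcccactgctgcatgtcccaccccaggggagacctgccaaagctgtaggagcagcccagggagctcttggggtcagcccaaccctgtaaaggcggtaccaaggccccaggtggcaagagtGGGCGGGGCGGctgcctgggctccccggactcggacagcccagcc
Gng13, start site 2: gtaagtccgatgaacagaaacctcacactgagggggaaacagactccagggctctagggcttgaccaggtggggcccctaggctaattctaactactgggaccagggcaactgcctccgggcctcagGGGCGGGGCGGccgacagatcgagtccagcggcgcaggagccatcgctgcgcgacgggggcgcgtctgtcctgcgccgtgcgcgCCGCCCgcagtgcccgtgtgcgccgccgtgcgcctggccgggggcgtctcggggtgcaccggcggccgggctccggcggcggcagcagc
Akr1c14: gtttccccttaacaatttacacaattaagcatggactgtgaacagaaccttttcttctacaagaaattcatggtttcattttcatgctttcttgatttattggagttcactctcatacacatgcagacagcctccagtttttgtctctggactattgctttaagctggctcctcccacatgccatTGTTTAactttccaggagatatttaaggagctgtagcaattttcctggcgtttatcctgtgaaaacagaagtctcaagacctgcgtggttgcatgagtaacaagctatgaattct

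The upstream window of Gng13 held 1 forkhead match and 2 overlapping SP matches, the downstream window 3 SP matches, and that of Akr1c14 held 1 forkhead match. Of 32851 promoter windows of the same length, 13.4% held TAAACA and 35.7% held GGGCGG. The GATA motif AGATAA (11.2% of all windows), the NR5A motif AAGGTCA (4.72%) and the TCF/LEF motif CTTTGA (16%) had no match in these windows. GC content was 62.0 and 72.0% at the Gng13 start sites, with 6 and 34 CG pairs, and 39.7% with 2 CG pairs at Akr1c14, against medians of 52.7% and 7 over all windows. These matches are descriptions of letters and no measure of binding.

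The thresholds of the rule cut through gradients. With the other rules met, 75 cells had exactly 5 UMIs of Gng13 and 99 had 4, and their levels of Lgr5 were 180 and 161 CPM and of Foxl2 185 and 226 CPM. The limit on Upk3b removed more cells than the other exclusions, 320 of those left at that step. Members with 1 UMI of Upk3b (73 cells) had 228 CPM of Krt19, an epithelial keratin, and excluded cells with 2 UMIs (38 cells) had 347 CPM. The Pax8 limit removed 54 cells, and the 29 with a single Pax8 UMI that met the other rules had 86.7 CPM of Lgr5. The germ cell limit removed 15 cells, with 10 members at the limit of 2 UMIs and 1 cell just past it, and 0 cells lay at or just below the limits on Wnt6 and Kitl or on detected genes.

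**Figure D1:**
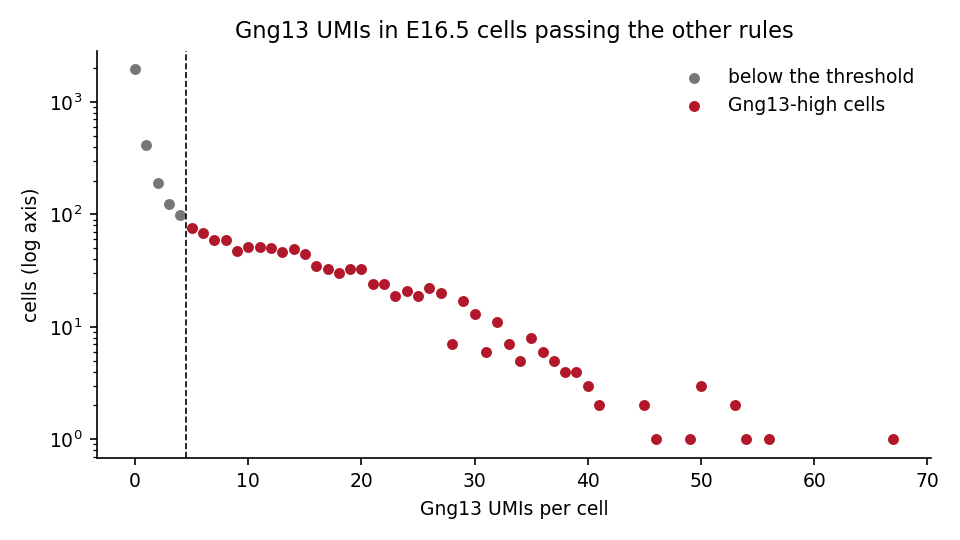
Number of E16.5 cells (log axis) by Gng13 UMIs per cell (x axis) among cells that met every other rule, with the threshold of 5 UMIs dashed. The members reached 67 UMIs with a median of 14, and the curve has no gap at the threshold.

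The members had between 5367 and 69674 UMIs, with a median of 14228 UMIs and 4273 genes. The following classes from the same library served for comparison. Gng13-low supporting cells (1665 cells, median 11694 UMIs) met the same exclusions with at most 1 UMI of Gng13 and at least 1 of both Wnt6 and Kitl. Gng13-intermediate cells (411 cells, 12767 UMIs) had 2 to 4 UMIs of Gng13. Surface epithelium cells (463 cells, 17168 UMIs) had at least 3 UMIs of Upk3b and no Pax8, and stroma cells (1985 cells, 10710 UMIs) at least 3 UMIs of Nr2f2 and Pdgfra together with the same exclusions, at most 1 UMI of Gng13, and no Wnt6, Pecam1 or Cldn5, so its levels of these genes follow from the definition. Other somatic cells (6284 cells, 11491 UMIs) were all somatic cells outside the rule. Mitochondrial transcripts made up 11.9% of UMIs in the Gng13-high cells, 11.52% in Gng13-low cells, 8.80% in surface epithelium and 5.58% in stroma. A limit of 10% mitochondrial UMIs left 236 of the members, and several ratios under it are given beside the genes. Scrublet called 47 of the members doublets (4.60%), against 436 of 10770 cells scored in the library (4.05%).

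The markers that accompany Gng13 had higher summed levels in these cells than in the Gng13-low cells. Of Lgr5, Hmcn1 and Gpc3, however, only Lgr5 had its highest level in the members among the classes compared. Lgr5 was 272 CPM in Gng13-high cells, 110 in intermediate, 18.8 in Gng13-low, 202 in surface epithelium and 2.06 in stroma. Hmcn1, which encodes the matrix protein hemicentin, was 146 CPM in the members, 116 in intermediate, 69.8 in Gng13-low cells, 114 in surface epithelium and 202 in stroma. Gpc3, a glypican on the cell surface, was 226 CPM in the members, 114 in intermediate, 60.5 in Gng13-low cells, 355 in surface epithelium and 223 in stroma. Hmcn1 was thus highest in stroma and Gpc3 in surface epithelium, and neither alone marks the Gng13-high cells. Gng13 itself was 1035 CPM in the members and 17.4 in Gng13-low cells, an order fixed by the rule, and 473 in surface epithelium, where no limit was set. It was 6.57 CPM in stroma, which has the same limit of 1 UMI, and 16.8 and 18.6 CPM in germ and endothelial cells, where the rule set no limit.

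Genes of PG identity were present at levels that differed less. Kitl was 1132 CPM in Gng13-high and 1249 in Gng13-low cells, and Wnt6, which also entered the rule, 485 and 387 CPM. At the mitochondrial limit the ratio of Kitl went from 0.906 to 1.24. Wnt4, a ligand of ovarian differentiation, was 427 and 456 CPM, Runx1 209 and 229 CPM, and Gata4 146 and 144 CPM. Foxl2 was the exception, at 96.2 CPM in the members, 273 in intermediate and 397 in Gng13-low cells. The members' Foxl2 was nonetheless above the 17.6 CPM of surface epithelium, the 30.8 of stroma and the 16.8 of germ cells. Wnt6 and Kitl were used by the rule and do not bear on the label of pregranulosa cells, and Wnt4 was also 345 CPM in stroma. Fst and Irx3, which the rule did not use, were higher than in surface epithelium and stroma by the ratios given below. Of 15 listed supporting cell genes, 5 were at least 2-fold higher than in surface epithelium, beside 3.49% of all genes. These were Gng13 of the rule, Wnt4, Foxl2, Fst and Irx3, while 0 were lower and 10 were within 2-fold. Against stroma 11 were higher, beside 12.3% of all genes, 0 were lower and 4 were within 2-fold. Foxl2, the usual marker of these cells, was lower than in the other supporting cells.

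**Figure D2:**
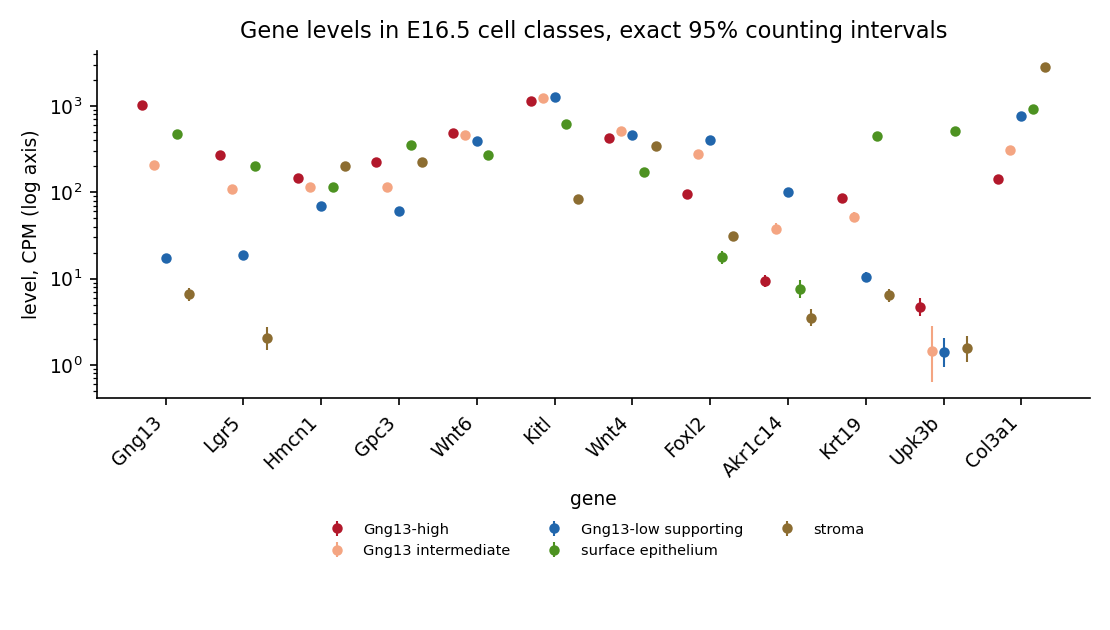
Levels in CPM (log axis) of 12 genes in Gng13-high, Gng13-intermediate, Gng13-low supporting, surface epithelium and stroma cells of the E16.5 library, with exact 95% Poisson intervals as bars. Gng13 and Lgr5 are highest in the Gng13-high cells, Foxl2 and Akr1c14 in the Gng13-low cells, and Krt19 and Upk3b in surface epithelium (Wnt6 in stroma is 0 by the class definition and is not drawn).

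Against Gng13-low supporting cells, 8996 genes had a mean of both levels of at least 10 CPM and could be compared. Of these, 188 (2.09%) were at least 2-fold higher in Gng13-high cells and 307 (3.41%) at least 2-fold lower, on the ratio of CPM plus 1, and the median log2 ratio over all genes was -0.06. The rule split these classes by Gng13, so the counts describe the split and test nothing. The counts of list members below stand beside these shares of 2.09 and 3.41%, and a single call in a list is not read as a result. Among the 15 highest genes with a mean of at least 50 CPM, after Gng13, Svs5 was 17.8-fold higher (15 to 21.3) and Lgr5 15-fold (13.1 to 16.1). Svs5 encodes a seminal vesicle secretory protein. Bmp2, a bone morphogenetic protein, was 147 CPM against 18.6, a ratio of 7.94 (7.12 to 8.87). The noncoding RNA Mhrt was 7.68-fold higher (6.78 to 8.72), and Igfbp2, which binds insulin-like growth factors, 6.42-fold (5.85 to 7.05). Mt1, a metallothionein, and Calb1, the calcium buffer calbindin, were 5.16-fold (4.92 to 5.42) and 5.14-fold higher (4.78 to 5.53). Cst12, Adamts19, Lhx9, Dusp5, Gpc3, Egfl6 and Gadd45b completed the 15, with ratios between 3.68 and 4.05. Among cells with at most 10% mitochondrial UMIs the ratios of Svs5, Lgr5, Mhrt, Calb1 and Cst12 were 27.6, 24.9, 12.8, 8.44 and 6.89. The 15 genes include a cystatin, a secreted metalloprotease, a homeobox factor of the early gonad and a phosphatase of MAP kinases.

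Among the 15 lowest genes, Akr1c14 was 9.42 CPM in Gng13-high cells and 102 in Gng13-low cells, 10.8-fold lower (9.11 to 12.8). Its level in the members was close to that in surface epithelium (7.64 CPM) and germ cells (6.92 CPM) and above that in stroma (3.53 CPM), by 2.67-fold (2.02 to 3.55). Thbs1, the matrix protein thrombospondin, was 17.5 against 222 CPM, 12.7-fold lower (11.2 to 14.4). Col18a1, a basement membrane collagen, was 7.76-fold lower (7.04 to 8.58). Shtn1, Plk2, Etl4, Col3a1, Slc26a7, Ncam1, Nnat, Tenm4 and Mgp were between 4.53-fold and 7.64-fold lower. Without doublet calls the ratios of Col3a1, Ncam1 and Mgp went from 0.186, 0.194 and 0.221 to 0.107, 0.0890 and 0.117. At the mitochondrial limit those of Nnat and Plk2 went from 0.209 and 0.137 to 0.375 and 0.222. S100a9 and S100a8, genes of neutrophils, were 220-fold and 111-fold lower, but 4 of the 1665 Gng13-low cells held 99.0% of the 10005 UMIs of both genes in that class. Without cells with at least 3 of these UMIs, an alternative added after the values were seen, the ratios were 0.488 and 0.862.

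**Figure D3:**
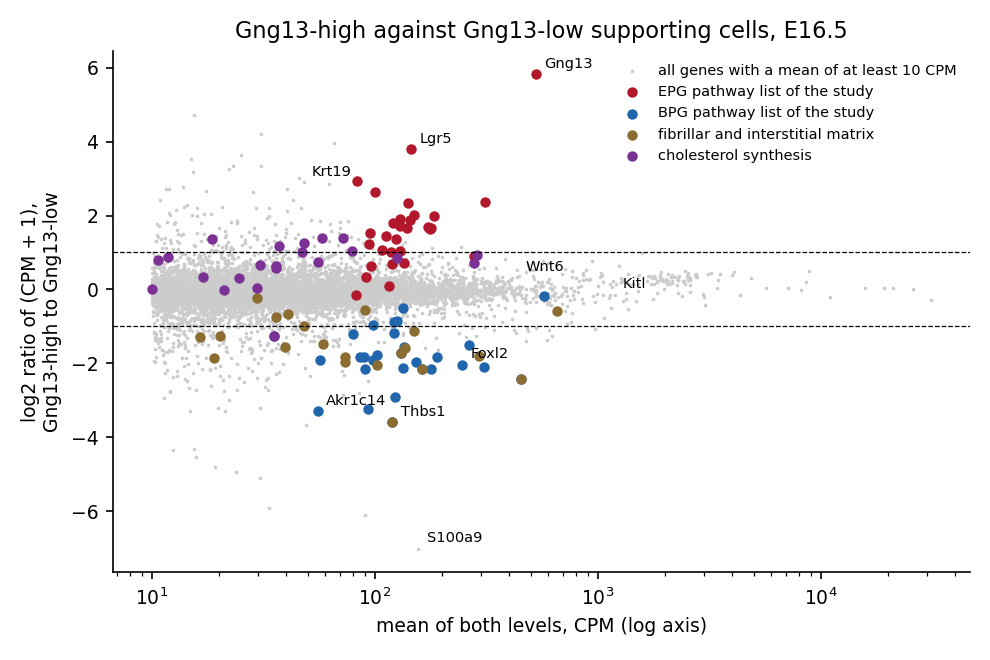
Log2 ratio of CPM plus 1 of Gng13-high to Gng13-low supporting cells (y axis) against the mean of both levels in CPM (log x axis), 1 point per gene of 8996, with 2-fold dashed. Gng13, Lgr5 and Krt19 lie above the upper line, Akr1c14, Thbs1, Foxl2 and S100a9 below the lower, and Wnt6 and Kitl between.

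The study's own pathway genes were divided accordingly. Of 30 EPG genes, all compared, 23 were higher (beside 2.09% of all genes) and 0 lower, with a median log2 ratio of 1.65, and of 30 BPG genes 29 were compared, 0 were higher and 24 lower (beside 3.41%), with a median of -1.84. The first list holds Gng13 itself, on which the rule selected. It also holds Rspo1 and Bmp2, which the paper's text names with bipotential or BPG cells. The study chose both lists on these same cells, so these counts are not independent evidence. Khdrbs3, Nrn1, Pam and Folr1 of the first list were between 2.74-fold and 3.32-fold higher. Aard, a gene also known from Sertoli cells, and Akr1cl of the second list were 4.46-fold and 4.28-fold lower.

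Transcription factors of the gonad went both ways, and their counts were not tested against those of genes in general. Of 27, 17 were compared, and 2 were higher and 4 lower, beside 2.09% higher and 3.41% lower among all genes, and 11 were within 2-fold. Lhx9 was 3.83-fold higher (3.57 to 4.10) and Nr0b1, a corepressor of Nr5a1, 4.06-fold (3.21 to 5.18). Foxl2 was 4.13-fold lower (3.90 to 4.36), Nr5a2 11.2-fold (7.66 to 16.9) and Msx1 7.25-fold (6.02 to 8.80). Of 16 Sertoli genes 4 were compared, and Sox9, Ptgds and Aard were lower, with Sox9 at 5.74 against 36.1 CPM.

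Genes of the Wnt pathway were mostly within 2-fold, as were genes in general, of which 2.09% were higher and 3.41% lower. None of the 6 ligands and R-spondins compared was 2-fold higher or lower, with Wnt4 at a ratio of 0.938 (0.909 to 0.968), which was 1.01 at the mitochondrial limit, and Rspo1, a ligand of Lgr5, at 1.56 (1.46 to 1.67). Of 11 receptors compared 1 was higher, the marker Lgr5, and 0 were lower, and its relative Lgr4 was 101 CPM against 128. Of 15 targets, transducers and antagonists 0 were higher and 1 was lower, the antagonist Sfrp1, at 20.3 against 70.2 CPM, beside 3.41% of all genes. Axin2, a target of canonical Wnt signalling, had a ratio of 1.07 (1.00 to 1.13), and Lef1, 1.91 (1.71 to 2.14). The Lgr5 ratio of about 15 stood beside ratios of 1.07 for Axin2, 1.91 for Lef1 and 1.56 for Rspo1. Whether Wnt signalling differed between the classes was not tested.

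Of 12 G protein gamma subunits 5 were compared, including the Gng13 of the rule, and Gng2 was 2.69-fold higher (2.35 to 3.07) at 43.2 against 16.1 CPM. Gng5, Gng11 and Gng12 had ratios between 0.638 and 0.858. Of 12 alpha and beta subunits compared, 0 were higher and 1 was lower, Gnb5, at 13.4 against 41.9 CPM, again a single call.

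Matrix genes were divided by kind. Of 21 fibrillar and interstitial matrix genes compared, 0 were higher and 15 lower (beside 3.41% of all genes), with a median log2 ratio of -1.56. Col3a1 was 142 CPM against 762, 5.37-fold lower (5.13 to 5.62), and Col1a1, 68.1 against 206 CPM. Markers of stroma moved with this list. Their summed level over 18 genes was 596 CPM in Gng13-high cells, 1870 in Gng13-low cells and 10787 in stroma, with Col3a1 the most abundant in each, and cells with at least 3 UMIs of Nr2f2 and Pdgfra were 6.26% (4.86 to 7.93) of Gng13-high and 14.2% (12.6 to 16) of Gng13-low cells. Without cells that had such markers of stroma, endothelium or myeloid cells, an alternative added after the values were seen, 9 matrix genes were lower and the ratio of Col1a1 went from 0.331 to 0.601. With Foxl2 required in the Gng13-low cells 8 were lower and the ratio of Col1a1 was 0.664, and without doublet calls the ratio was 0.111. Thbs1, also at least 2-fold lower in the members than in stroma, had a ratio to Gng13-low cells between 0.0626 and 0.0918 over all alternatives. It was present with at least 3 UMIs in 24 members and 486 Gng13-low cells. Whether stroma cells had a part in its difference was not tested.

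Basement membrane genes numbered 21 compared, with 2 higher, Hmcn1 and Lama3, and 1 lower, Col18a1, beside 2.09 and 3.41% of all genes. Hmcn1 had a ratio of 2.09, which was 1.66 at the mitochondrial limit and so no longer past 2-fold. Lama3, a laminin chain of epithelia, was 30.9 against 4.07 CPM, 7.60-fold higher (6.01 to 9.71). Of 18 glypicans, syndecans and heparan sulfate enzymes compared, Gpc3 and Csgalnact1, which starts chondroitin sulfate chains, were higher and Sdc4 and Sulf2 lower. Of 19 junction and keratin genes 5 were higher. Krt19 was 85.3 against 10.5 CPM, 8.10-fold higher (7.0 to 9.40), and Krt7 was 56.9 against 4.70 CPM, 12.1-fold (9.78 to 15.1). Krt8, Krt18 and Epcam, an adhesion molecule of epithelia, were 2.59-fold, 2.06-fold and 2.75-fold higher. The ratio of Krt18 was below 2 with depth matched (1.94), with Foxl2 required in the Gng13-low cells (1.93) and without cells of other lineages (1.88). At the mitochondrial limit the ratios of Krt18, Krt8 and Krt19 were 3.55, 4.63 and 13.3. Tjp1 of tight junctions, the connexin gene Gja1 and Dsp of desmosomes were 2.29-fold, 2.97-fold and 3.57-fold lower. The higher members of this list were thus simple epithelial keratins with Epcam, and the lower were junction components.

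In the synthesis of cholesterol, 22 genes were compared, with 7 higher and 1 lower (beside 2.09 and 3.41% of all genes) and a median log2 ratio of 0.76. Idi1 was 2.70-fold higher (2.45 to 2.97) and Stard4, a sterol carrier, 2.74-fold (2.31 to 3.25). The count was 15 at a 1.5-fold limit, 0 at a 3-fold limit, and 4 among comparison cells matched in depth or among cells with at most 10% mitochondrial UMIs. Of 13 steroid genes, Star, which moves cholesterol into mitochondria, was 2.88-fold higher and 4 genes were lower, among them Akr1c14, Akr1cl and Hsd17b7.

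Of 25 genes of the TGF-beta family, 1 was higher, Bmp2, and 3 were lower (beside 2.09 and 3.41% of all genes), Tgfb2, Tgfbr1 and Smad3, at 5.67-fold, 2.15-fold and 3.90-fold. Fst, which binds activin, was 599 against 787 CPM. Of 16 insulin-like growth factor genes, Igfbp2 and Igf1 were higher, the latter 2.90-fold (2.69 to 3.13), and Igfbp5 and Igfbp7 lower. Of 8 genes of Kit ligand, Notch and oocyte contact 1 was higher, the inhibin coreceptor Tgfbr3l, at 35.8 against 9.36 CPM. Of 7 hedgehog genes 0 were called. Of 9 retinoic acid genes, Rdh10, which oxidises retinol, was higher and 2 were lower, among them Nr2f2. Cst8 and Cst12 among 7 cystatins and defensins were higher, Defb19 and Wfdc10 lower. Mt1, Mt2 and the folate receptor Folr1 were higher among 8 genes of metal and folate binding.

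Of 18 cell division genes compared, 0 were higher, 14 were within 2-fold and 4 were lower (beside 3.41% of all genes), which were Mki67, Top2a, Ube2c and Hist1h2ap. Mki67 was 35.1 against 83.5 CPM, a ratio of 0.421 (0.381 to 0.464) that was 0.684 against cells matched in depth, 0.718 with Foxl2 required in the Gng13-low cells and 0.296 without doublet calls. Cells with at least 2 UMIs of Mki67 and Top2a were 51 Gng13-high cells, 4.99% (3.74 to 6.51), against 7.03% (5.85 to 8.36) of Gng13-low cells, 19.4% (15.9 to 23.3) of surface epithelium and 24.9% (23.0 to 26.9) of stroma. After every cell was thinned to 5000 UMIs, the shares with at least 1 such UMI were 8.61, 11.0, 21.7 and 29.9%. The intervals of the 2 supporting classes overlapped in both counts, 6.96 to 10.5% and 9.49 to 12.6% after thinning, and both classes lay below surface epithelium and stroma. Of 10 inhibitors of the cell cycle 0 were called, with Cdkn1c at 2103 against 1053 CPM and Cdkn1b at 604 against 932. Of 26 genes of stress and dissociation 5 were higher, Egr2, Ier3, Nr4a1, Gadd45b and Gadd45g, and Hspa1a was lower.

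Markers of germ, endothelial, immune and neural cells were at low summed levels in the members, and those of red cells were not. The limits of the rule on Dazl and Ddx4 hold the germ cell genes low in both classes. The summed level was 58.1 CPM for 15 germ cell genes against 74.8 in Gng13-low cells, 130 against 227 for 14 endothelial genes and 17.9 against 589 for 16 immune genes, where S100a9 was the most abundant in Gng13-low cells. For 12 erythroid genes it was 5030 against 5953 CPM, led by Hbb-bs, and for 15 rete tubule genes 326 against 324 CPM, led by Emx2 and with Pax8 and Ggt1 among those at 0 in the members, of which Pax8 is 0 by the rule. For 12 pericyte genes it was 361 against 392 CPM, led by Cald1, and for 11 neural genes 25.4 against 35.9 CPM, with Sox10, Foxd3 and Snap25 among those at 0. The 15 surface epithelium markers summed to 750 CPM against 490, and to 2580 in surface epithelium, with Wt1 the most abundant in both supporting classes. Of these lists, the calls were 0 of 3 compared germ cell genes, 1 lower of 5 endothelial and 4 lower of 4 immune genes. A further 2 were lower of 8 erythroid, 1 of 3 pericyte and 0 of 1 neural gene. The immune genes called were Lyz2, Lcn2, S100a8 and S100a9. As given above, 4 Gng13-low cells held 99.0% of the UMIs of S100a8 and S100a9 in that class. Of 4 rete genes 2 were higher, Krt7 and Epcam, and 1 was lower, Lcn2, which is also in the immune list. Of 5 surface epithelium genes Krt19 and Krt7 were higher. Of 12 stroma genes 9 were lower, and of 15 supporting cell genes 5 were higher, among them the Gng13 of the rule, and Foxl2 was lower.

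Surface epithelium cells were chosen without a limit on Gng13, unlike the Gng13-low and stroma cells. Of 8943 genes, 312 (3.49%) were at least 2-fold higher in Gng13-high cells and 502 (5.61%) lower. Gng13, on which the members were chosen, was 2.19-fold higher and Lgr5 1.35-fold (1.27 to 1.42). Fst was 599 against 84.3 CPM, 7.10-fold higher (6.59 to 7.67), Foxl2 5.46-fold (4.62 to 6.50), Calb1 3.51-fold (3.22 to 3.84), Irx3 2.55-fold (2.40 to 2.72) and Wnt4 2.5-fold (2.37 to 2.65). Of 21 cholesterol genes 11 were higher and 0 lower, with Hmgcs1 at 347 against 93.8 CPM. Krt19 was 5.24-fold lower (4.92 to 5.58), Krt18 2.83-fold and Krt8 2.31-fold, and Igfbp2 3.96-fold (3.79 to 4.15). Of 26 division genes 0 were higher and 20 lower. The 30 EPG genes were divided, with 9 higher and 5 lower, the latter including Mt1, Aldh1a2 and the keratins Krt8 and Krt18. Relative to Gng13-low cells keratins were high, and relative to surface epithelium they were low.

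Against stroma, 1114 of 9068 genes (12.3%) were at least 2-fold higher in Gng13-high cells and 994 (11%) lower. Lgr5 was 132-fold higher (99.1 to 181), Irx3 88.5-fold (72.0 to 110) and Fst 52.1-fold (46.0 to 59.2). Col3a1 was 19.9-fold lower (19.1 to 20.8), and the class gene Nr2f2 16-fold. Gpc3 was at an equal level within counting error, with a ratio of 1.01 (0.968 to 1.06). Against all other somatic cells, 319 of 9153 genes (3.49%) were higher and 627 (6.85%) lower. The higher genes numbered 521 at the mitochondrial limit and 199 with depth matched. The 10 highest were Gng13 (11.1-fold), Mhrt (8.42-fold), Svs5 (6.98-fold), Lgr5 (6.81-fold), Bmp2 (6.72-fold), Calb1 (6.70-fold), Gm14226, Cst12, Cst8 and Khdrbs3. The ratios of Mhrt, Svs5, Calb1, Gm14226, Cst12, Cst8 and Khdrbs3 moved by over 1.5 times under at least 1 alternative. Against the same group, which includes stroma, Hmcn1 and Gpc3 were 1.28-fold (1.22 to 1.34) and 1.51-fold (1.45 to 1.57) higher in Gng13-high cells.

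Single members differed widely. Lgr5 ranged from 0 to 19 UMIs with a median of 4, and 165 members (16.1%) had none. Foxl2 ranged from 0 to 18 with a median of 1, and 492 (48.1%) had none. Krt19 reached 25 UMIs, but 609 members (59.6%) had none, and Akr1c14 was absent from 920 (90%). Kitl had a median of 16 UMIs and Wnt6 of 7. To compare shares at equal depth, cells were thinned to 5000 UMIs. Lgr5 was then found in 63.1% of Gng13-high and 6.99% of Gng13-low cells, and in 1.98% of germ cells, whose median depth was 26492 UMIs. Foxl2 was found in 32.3% and 77.7%, and in 4.07% of germ cells. Krt19 was found in 24.7% and 3.62%, and in 0.769% of germ cells. Lgr5, Foxl2 and Krt19 were thus found in a larger share of members than of germ cells. The members had a lower median depth of 14228 UMIs, and Hbb-bs, from red cells, was 2766 CPM in them against 996 in germ cells. How well the germ cell share gives the background of the members was not tested.

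Variation among members after thinning was led by transcripts that also vary in other cells. The 10 genes with the largest variance over mean were Gm42418 (59.5), Malat1, AY036118, Cdkn1c, Mt1, Col1a1, Ftl1, Col3a1, Hmox1 and Tpt1 (3.98), among 4027 genes with a median of 1.05. Gm42418 and AY036118 overlap ribosomal RNA sequence, and Malat1 is a nuclear noncoding RNA. Cdkn1c, which encodes an inhibitor of cyclin-dependent kinases, had 6.61 and the metallothionein Mt1 had 5.03. In all, 77 genes reached a variance over mean of 2, and 37 did when cells were thinned to 3000 UMIs.

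Within the members, Lgr5 and Foxl2 varied in opposite directions. When the members were divided into 4 equal groups by Gng13 per UMI, thinned levels of Lgr5 were 188 (165 to 214), 274, 312 and 355 CPM (324 to 390) from the lowest to the highest group, and those of Foxl2 191 (167 to 216), 97.3, 80.0 and 49.2 CPM (37.8 to 63.0). Members with no Foxl2 UMI after thinning (692 cells) had 305 CPM of Lgr5 (287 to 324), and those with at least 1 (330 cells) had 235 (212 to 259). Fst was 509 and 808 CPM in those cells, and Gpc3 256 and 152 CPM. Members with Krt19 (252 cells) had 322 CPM of Wnt4 (292 to 355), against 464 (442 to 486) in those without. Hbb-bs, a red cell transcript, was 4073, 2567, 1555 and 691 CPM over the same groups, and its part in these differences was not tested. Wnt4 was between 417 and 439 CPM in all 4 groups.

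The same opposite course was seen over the whole range of Gng13 in supporting cells with at least 1 UMI of both Wnt6 and Kitl. Ranges of 0, 1, 2 to 4, 5 to 9, 10 to 19 and 20 to 67 UMIs held 1310, 355, 394, 308, 418 and 292 cells, with Lgr5 at 14.4, 33.4, 109, 210, 273 and 327 CPM. Foxl2 was 409, 354, 279, 157, 87.9 and 53.0 CPM, and Akr1c14 111, 70.5, 39.2, 14.9, 8.97 and 4.74 CPM. Bmp2 went from 15.6 to 182 CPM and Gpc3 from 58.1 to 263. Krt19 went from 8.90 to 53.8 CPM at 2 to 4 UMIs and lay between 83.9 and 87.3 CPM in the ranges from 5 UMIs. Wnt6 and Kitl, on which all these cells were chosen, moved little, from 379 to 502 CPM and from 1255 to 1098 CPM. The ranges also differed in depth, with median UMIs of 11566.5 in the lowest and 15300.5 in the highest range, and its part in these differences was not tested. The levels on both sides of the threshold of the rule, in the ranges of 2 to 4 and 5 to 9 UMIs, lay between those of the outer ranges for Lgr5, Foxl2 and Akr1c14.

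**Figure D4:**
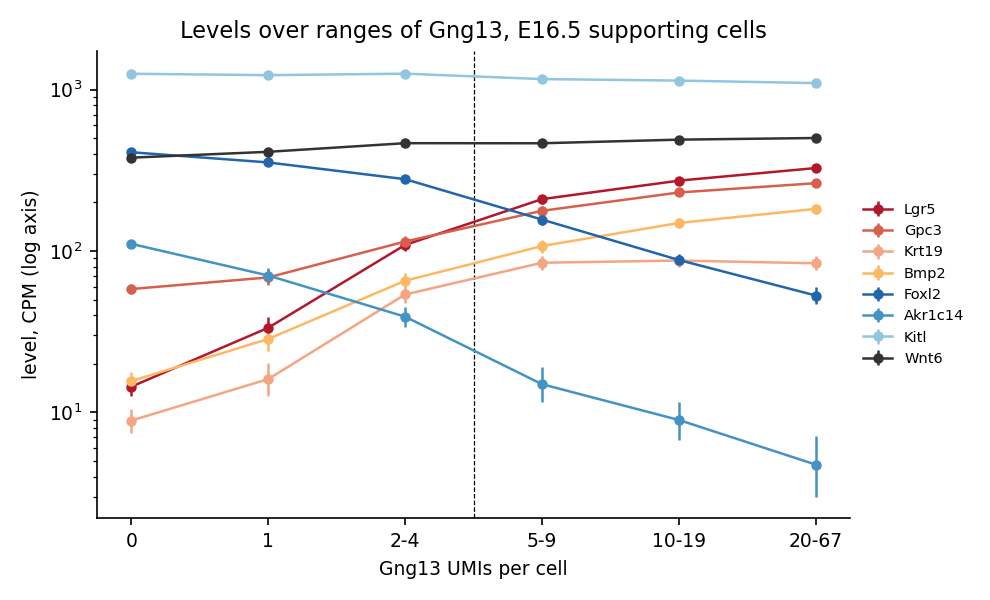
Levels in CPM (log axis) of 8 genes over ranges of Gng13 UMIs per cell (x axis) in E16.5 supporting cells, with exact 95% Poisson intervals and the threshold of the rule dashed. Lgr5 goes from 14.4 to 327 CPM and Foxl2 from 409 to 53.0 CPM from the lowest to the highest range.

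The same rule was applied to the other libraries, with the limits above on reading E16.5 against them. E11.5 had 4 such cells and E12.5 had 293. E14.5 had 2164, E18.5 had 558, and after birth P1 had 273 and P5 had 126. Shares were compared among somatic cells thinned to 5000 UMIs. E11.5 had 0 of 6925 cells, which allows a share of up to 0.0533%, and E12.5 had 2.44%. The share was 30.2% (29.0 to 31.5) in the E14.5 library, 8.55% (7.90 to 9.23) in that of E16.5 and 17.0% (15 to 19) in that of E18.5. It was 3.25% for P1 and 1.80% for P5. Without thinning, the shares in order of age from E12.5 were 7.46, 30.0, 14.0, 18.8, 5.73 and 2.40%. The share was highest at E14.5 and higher at E18.5 than at E16.5 at either depth.

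The ratios to Gng13-low cells of the same library let the difference be read within each age. In order of age from E12.5 to P5, the ratio for Lgr5 was 1.48 (1.2 to 1.82), 3.02 (2.61 to 3.50), 15, 11.2 (8.92 to 14.1), 11.9 (9.20 to 15.4) and 43.7 (30.7 to 63.8). For Foxl2 it was 0.711, 0.336, 0.242, 0.221, 0.397 and 0.439, and for Akr1c14 0.459, 0.151, 0.0927, 0.0643, 0.0631 and 0.314. Hmcn1 lay between 1.95 and 2.74 at every age from E12.5. Krt19 had a ratio of 0.876 (0.539 to 1.39) in the E12.5 library and of 0.814 (0.639 to 1.04) in that of E14.5, followed by 8.10, 7.12, 11.6 and 23.5 from E16.5 on. The keratin was thus within the counting error of equal up to E14.5 and higher in Gng13-high cells of the 4 later libraries.

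The genes ranked at E16.5 were then read in the libraries that the ranking had not used. Of the 14 highest without Gng13, the number with a ratio above 1 was 9, 12, 14, 14 and 13 in the order E12.5, E14.5, E18.5, P1 and P5, and Adamts19, Bmp2, Cst12, Igfbp2, Lgr5, Lhx9, Mhrt, Mt1 and Svs5 were above 1 in all 5. Of the 15 lowest, the number below 1 was 13, 12, 15, 15 and 14 in the same order, and 11 genes were below 1 in all 5, while S100a8 and S100a9 had 0 UMIs in both classes at E14.5. Each library applied the same rule on Gng13, so these ratios share the split but not the cells.

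**Figure D5:**
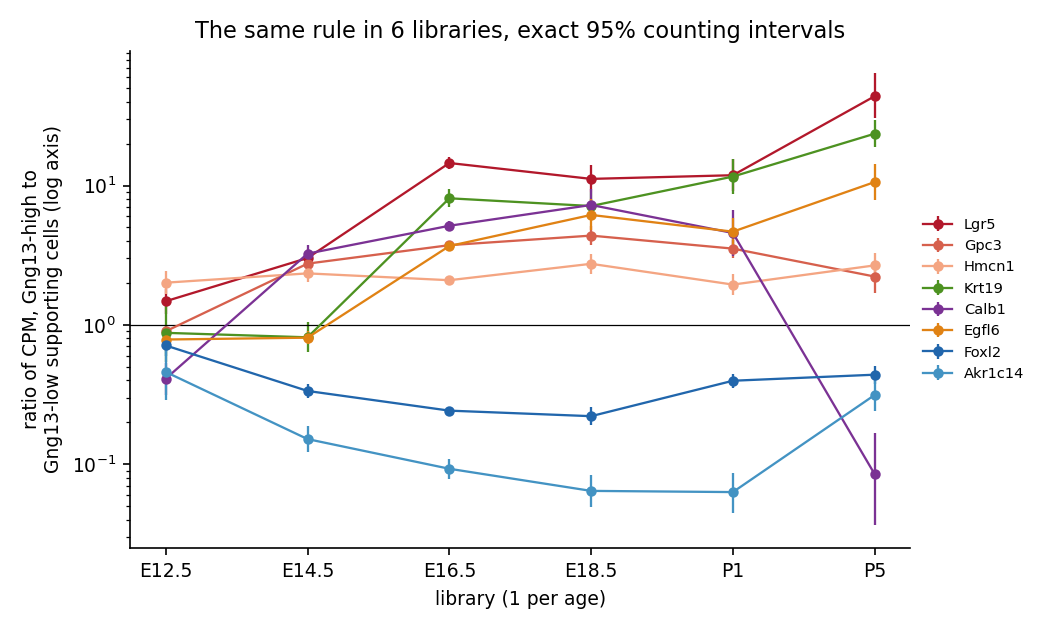
Ratio of CPM of Gng13-high to Gng13-low supporting cells (log y axis) for 8 genes in 6 libraries (x axis, 1 library per age), with exact 95% intervals as bars and a line at 1, without E11.5, which had 4 Gng13-high cells. Lgr5 is above 1 and Foxl2 and Akr1c14 below 1 at every age shown, and Krt19 is at or below 1 at E12.5 and E14.5 and above it from E16.5.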

How the data were processed

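Cells of mouse gonads were measured in 7 droplet libraries, 1 per age, and the report rests on that of E16.5. The authors deposited raw UMI counts, made with Cell Ranger 3.1.0, per the file headers and the labels, on the mouse genome mm10 with 31053 genes, without normalization and without pooling across ages. The stated chemistry is the same for all libraries.

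Cells were assigned to classes by the thresholds given, with no clustering. UMIs were summed over the cells of a class and scaled to CPM. No test was possible, since cells of 1 library are not replicates. Genes with a mean of both levels of at least 10 CPM were called at a 2-fold ratio of CPM plus 1. Genes were named if they were in the rule or a marker, among the 15 highest or lowest of at least 50 CPM against Gng13-low cells, the 10 highest against other somatic cells or the 10 most variable, or the up to 4 most different members of a list, without mitochondrial, ribosomal protein, haemoglobin and Y-linked genes and Xist in the ranks. Hbb-bs, Gng5, Gng11, Gng12, Lgr4, Axin2 and other listed members at like levels were named after their values were seen. Shares were compared after random thinning to 5000 UMIs per cell (seed 1), which left out shallower cells. Doublets were kept, and calls by Scrublet (scanpy 1.11.5, 30 components) were used in an alternative. Python 3.11.15, numpy 2.4.6, scipy 1.17.1 and pandas 2.3.3 were used, and the steps were tested on simulated data. The members, gene lists and named genes were chosen with earlier results of these data known. Of the alternatives, those without cells of other lineages were added after the values were seen. The 10% limit on mitochondrial UMIs removes most members. A few genes that the naming rule selects are not reported here.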

Additional observations from a re-analysis of the deposited data

Results flagged for a closer look

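Ratios of Gng13-high to Gng13-low supporting cells were compared between E16.5 and 5 other libraries for 59 genes, which were the markers, the ranked genes and genes of PG identity, epithelium, division and Wnt signalling, without those limited in either class apart from Wnt6 and Kitl. Of 295 gene and library pairs, 22 in 14 genes had an interval on the other side of 1 from that at E16.5. The differences between libraries were not tested, and library and age cannot be told apart.

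Of these, 11 were at E12.5 and 5 at E14.5. The keratins Krt8 and Krt18 and the adhesion gene Epcam, higher in Gng13-high cells at E16.5, had ratios of 0.879, 0.771 and 0.254 in the E12.5 library, and Krt18 also had 0.774 in that of E14.5. Egfl6 had 0.785 and 0.809 in these libraries. Gadd45b had 0.574, Aldh1a2, an enzyme of retinoic acid synthesis, 0.789 and Calb1, the calcium buffer calbindin, 0.411 in the E12.5 library.

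Genes of PG identity, most of them lower in Gng13-high cells at E16.5, were on the other side in several libraries. Fst had a ratio of 1.15 and Runx1 of 1.31 in the E12.5 library, and Runx1 had 1.43 in that of P5. Kitl (ratio 0.906 at E16.5, but 1.24 among cells with at most 10% mitochondrial UMIs) had 1.102 and 1.05 in the E12.5 and E14.5 libraries. Wnt6, which is higher at E16.5, had 0.949 in the E14.5 library. The rule used both Kitl and Wnt6 in each library. Wnt4 (ratio 0.938 at E16.5, but 1.01 among cells with at most 10% mitochondrial UMIs) had ratios of 1.21 in the E12.5 library, 1.52 in that of P1 and 1.38 in that of P5.

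Wnt5a, a ligand of noncanonical Wnt signalling, lower at E16.5 with a ratio of 0.626, had 1.47 in the E14.5 library and 2.12 in that of P5, the last from 12 UMIs in Gng13-high cells. Calb1 was also on the other side at P5, with a ratio of 0.0848 and 126 Gng13-high cells. Mgp, a matrix protein, lower at E16.5, had a ratio of 1.09 at P5.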

How the results depend on the processing

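No paired analysis was possible because each age is 1 library. The number of Gng13-high cells was 1022 and ranged from 820 to 1244 under the other limits on genes and marker UMIs, doublets or Gng13 per UMI, except that a limit of 10% mitochondrial UMIs left 236. As a share of somatic cells it was 10.5% at 200 genes, 15.4% at 2000 genes, 17.0% at 3 and 11.2% at 8 Gng13 UMIs, 5.29% at the mitochondrial limit, 13.0% without Upk3b and 11.8% per 10000 UMIs. Under that limit the ratios of Kitl and Wnt4 to Gng13-low cells were 1.24 and 1.01, on the other side of 1 from the values reported.

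Counts of genes depended on the level filter and fold by construction, given here as higher and lower. Against Gng13-low cells they were 53 and 98 at 50 CPM, 423 and 766 with no filter, 107 and 182 with 10 CPM added, 491 and 725 at 1.5-fold, and 76 and 128 at 3-fold. Against other somatic cells they were 111 and 148, 541 and 1747, 163 higher with 10 CPM added, 877 and 1065, and 75 and 405 in the same order, with 521 higher at the mitochondrial limit and 199 in comparison cells matched in depth. Against surface epithelium they were 118 and 137, 652 and 1126, 188 higher, 852 and 909, and 109 and 267. Against stroma they were 359 and 314 at 50 CPM, 2161 and 1873 with no filter, 2023 and 1585 at 1.5-fold, and 587 and 645 at 3-fold.

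Cholesterol genes that were higher numbered 4 at the mitochondrial limit or with depth matched, 3 at 50 CPM or with 10 CPM added, 15 at 1.5-fold and 0 at 3-fold. Junction and keratin genes numbered 3 at 50 CPM and 2 at 3-fold. Matrix genes that were lower numbered 9 at 3-fold or without cells of other lineages, and 8 with Foxl2 required. Thinned to 3000 UMIs, the shares of Gng13-high cells in order of age from E12.5 were 0.855, 15.1, 3.72, 10.1, 1.35 and 0.622%, and not thinned 7.46, 30.0, 14.0, 18.8, 5.73 and 2.40%, and 37 genes reached a variance over mean of 2 at that depth.

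Of 615 ratios of 41 named genes to Gng13-low cells over 15 alternatives, 437 stayed within the counting interval, 176 moved beyond it and 2 were on the other side of 1. Of 143 ratios of 13 genes to other somatic cells, 83 stayed within it and 60 moved. Ratios to Gng13-low cells moved by over 1.5 times in 30 cases in 17 genes: Calb1, Col1a1, Col3a1, Cst12, Krt18, Krt19, Krt8, Lgr5 (11.4 to 24.9), Mgp, Mhrt, Mki67, Ncam1, Nnat, Plk2, S100a8, S100a9 and Svs5. Those to other somatic cells did so in 7 genes. The cause of these changes was not tested.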
